A study of Mus musculus with 15 samples.

Results

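Expression of 7 genes of ammonia and glutamine metabolism was followed through the inner medulla (IM), the outer medulla (OM) and the cortex of the mouse kidney. The genes were Gls2, Glud1, Glul, Got1, Got2, Asns and Rhbg. They were chosen by symbol, as a pathway, and all 7 were present among the 25030 genes of the table. The libraries came from microdissected tissue of male wild-type mice (strain C56BL/6N as labelled), untreated as far as the labels say, and with no age given in the sources used here. Each zone had 5 bulk RNA-seq libraries of total RNA, 15 in all. Levels are in TPM (transcripts per 1000000), a unit already divided by gene length, so that levels of different genes can be set side by side.

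The kidney makes ammonia from glutamine, mainly in the proximal tubule, and sends it into the urine to carry acid. Glutaminase releases ammonia and leaves glutamate, and glutamate dehydrogenase releases further ammonia from glutamate inside the mitochondrion. Glutamine synthetase runs the other way and binds ammonia back into glutamine. Aminotransferases move the amino group between glutamate and aspartate, asparagine synthetase takes nitrogen from glutamine to make asparagine, and Rh glycoproteins let ammonia cross the membranes of the distal nephron and collecting duct.

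Promoter sequences are shown for the members that differed most between zones, Asns and Glul, and for the isoenzyme pair Got1 and Got2. They are RefSeq windows of 250 bases before to 50 after the start of the gene, on build GRCm38.p6, each written 5′ to 3′ along the gene. The table of promoters held 5 of the 7 members. In the Asns window the capitals mark TGATGAAAC, the core of the amino acid response element through which ATF4 acts, and in the others they mark CCAAT, the CCAAT box, or ATTGG, the same letters on the opposite strand.
Asns, chr6:7693160-7693459, minus strand: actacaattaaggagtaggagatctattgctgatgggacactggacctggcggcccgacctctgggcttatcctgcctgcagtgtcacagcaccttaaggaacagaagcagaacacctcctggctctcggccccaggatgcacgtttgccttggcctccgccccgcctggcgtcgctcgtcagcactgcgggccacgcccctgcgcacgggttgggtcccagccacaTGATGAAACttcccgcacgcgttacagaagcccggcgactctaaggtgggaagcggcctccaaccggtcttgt
Glul, chr1:153899679-153899978, plus strand: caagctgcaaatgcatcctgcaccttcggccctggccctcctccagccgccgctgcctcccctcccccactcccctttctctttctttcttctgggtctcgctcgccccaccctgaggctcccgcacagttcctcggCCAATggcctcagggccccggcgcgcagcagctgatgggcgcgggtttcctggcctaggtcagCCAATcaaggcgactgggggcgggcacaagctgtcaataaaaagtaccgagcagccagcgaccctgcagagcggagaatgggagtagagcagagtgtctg
Got1, chr19:43524556-43524855, minus strand: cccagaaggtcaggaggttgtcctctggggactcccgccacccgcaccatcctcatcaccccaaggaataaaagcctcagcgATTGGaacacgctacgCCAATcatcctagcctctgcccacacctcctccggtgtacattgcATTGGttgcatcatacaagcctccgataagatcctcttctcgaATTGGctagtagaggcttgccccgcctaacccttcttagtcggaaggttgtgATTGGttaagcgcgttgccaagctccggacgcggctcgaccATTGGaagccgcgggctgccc
Got2, chr8:95888352-95888651, minus strand: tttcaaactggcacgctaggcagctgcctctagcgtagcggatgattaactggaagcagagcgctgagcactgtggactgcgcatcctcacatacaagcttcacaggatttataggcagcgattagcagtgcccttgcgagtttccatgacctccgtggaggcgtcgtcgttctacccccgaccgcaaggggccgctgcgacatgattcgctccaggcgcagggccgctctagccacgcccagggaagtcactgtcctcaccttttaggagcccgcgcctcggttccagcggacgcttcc

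The letters TGATGAAAC, searched on both strands, began 23 bases before the start of Asns and were present in 81 of all 32851 promoter windows of this length (0.247%). CCAAT, searched on both strands, matched 6 times in the Got1 window, 2 times in the Glul window and 0 times in that of Got2, and 37.4% of all windows held it. A match describes the sequence and does not show that a factor binds there.

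The steps between TPM values gave back whole reads, and 16264486 to 25195553 reads per library were assigned to genes. Zones were compared on log2(TPM + 1) with limma, which gives each difference a standard error (SE), over the 15052 genes that reached 1 TPM in 5 or more libraries. A gene was called at an adjusted p under 0.05 (Benjamini-Hochberg, two-sided). Nothing in the labels says whether different mice gave the 5 libraries of a zone, so p-values reflect only library-to-library spread, which could be technical. In TPM, the median gene was itself higher in the inner zones, by 0.514 (log2) between IM and OM, 0.652 between IM and cortex and 0.114 between OM and cortex. Each difference of a member is therefore also given after median-ratio scaling, which sets the typical gene near 0. One library stood apart in IM: Kap, an androgen-regulated proximal tubule transcript, was at 10496 TPM in IM library 4 against up to 36874 TPM in its zone, and 6 markers of the straight proximal tubule summed to 589 TPM there, against up to 1973 TPM in the other IM libraries.

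The marker lists followed the dissection. Markers of the convoluted proximal tubule (6 of 6 above 1 TPM in every zone) summed to 679.7 to 1217 TPM in IM, 4215 to 5714 TPM in OM and 8673 to 10340.1 TPM in cortex. Principal cell markers of the collecting duct (6 of 6 above 1 TPM in every zone) summed to 8182 to 13201 TPM in IM, 917 to 1286 TPM in OM and 595 to 744 TPM in cortex. Aqp2 made up most of that sum in IM, at a mean of 7743.5 TPM. Not all 6 rose inward. Scnn1g averaged 22.3 TPM in IM, 23.8 TPM in OM and 36.6 TPM in cortex, and Hsd11b2 averaged 203, 161 and 188 TPM. In such bulk samples, fewer cells of a type and less RNA per cell cannot be told apart.

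Across the 7 genes the zones differed by member and not in 1 direction. Between IM and OM, 5 of 7 were called (71.4%), against 83.7% of all tested genes. Of these, Asns and Gls2 were higher, where 66.4% of all genes were, and Glul, Glud1 and Got2 were lower, where 17.2% were. Between IM and cortex 6 of 7 were called (85.7%, against 86.2% of all genes), with Asns and Gls2 higher (70.2% of all genes) and Glul, Glud1, Got2 and Rhbg lower (16% of all genes). Between OM and cortex 2 of 7 were called (28.6%, against 34.7%), with Asns higher (28.3%) and Rhbg lower (6.3%). After scaling 1 member was higher and 4 were lower between IM and OM, against 38.1% and 36.3% of all genes (74.5% in either direction). Between IM and cortex 1 was then higher and 5 were lower, against 40% and 38.6% (78.5% in either direction). Between OM and cortex 1 was then higher and 3 were lower, against 16.2% and 17.8% (34% in either direction). The share of members called lay near or below the background on the TPM scale in all 3 comparisons.

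**Figure D1:**
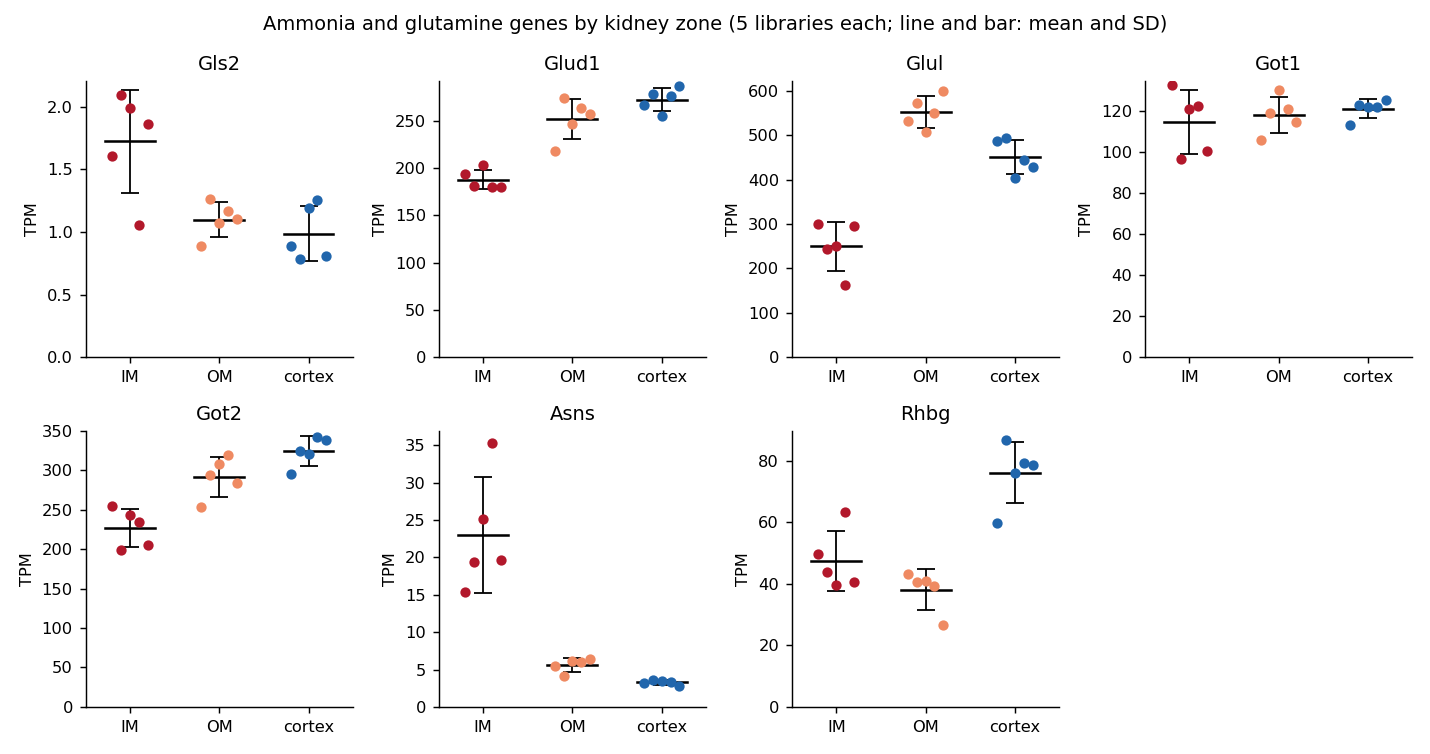
TPM of each of the 7 genes in every library, by zone, with points for libraries and a line and bar for the mean and SD (n = 5 per zone). Asns was highest in IM, Glul in OM and Rhbg in cortex, while Got1 lay between 96.3 and 133 TPM in every library.

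**Figure D2:**
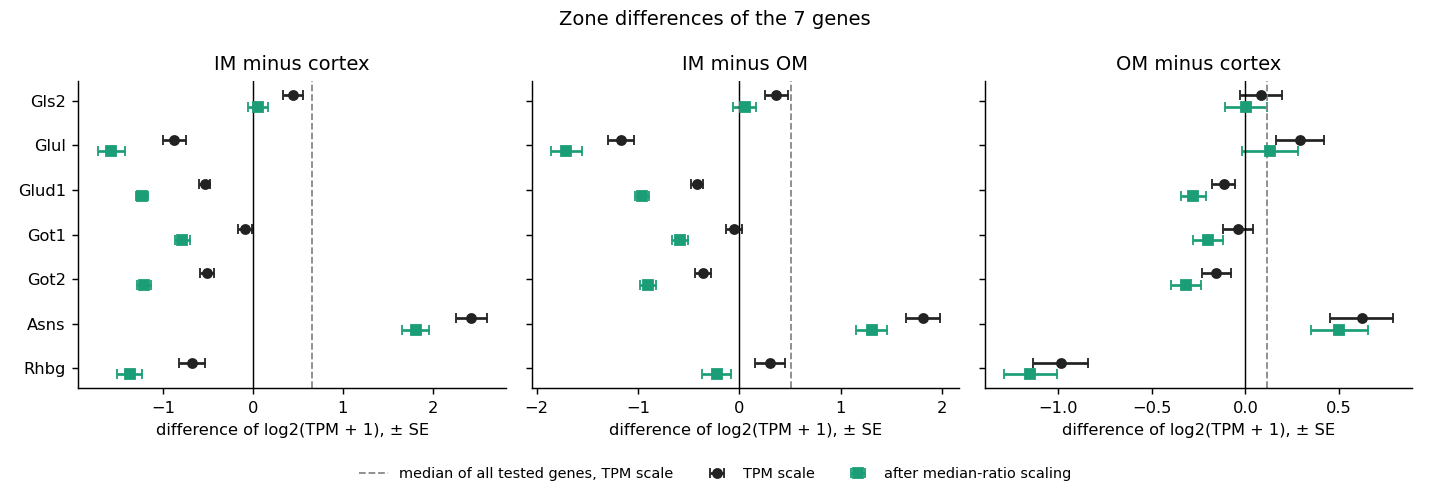
Differences of log2(TPM + 1) between zones with their SE, on the TPM scale (circles) and after median-ratio scaling (squares), with a dashed line at the median of all 15052 tested genes. Asns lay above 0 and above the dashed line in all 3 comparisons, and Glud1, Got1 and Got2 lay below 0 in all 3. Got1 was not called in any of them on the TPM scale.

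Gls2, the liver-type glutaminase, was close to the limit of what these libraries show. It had 1.60, 2.09, 1.99, 1.06 and 1.86 TPM in the IM libraries, 0.887, 1.26, 1.07, 1.16 and 1.10 TPM in OM, and 0.889, 0.786, 1.19, 1.26 and 0.808 TPM in cortex. IM library 4 lay within the range of the other zones and the remaining 4 IM libraries lay above them. These values rest on 20 to 59 reads per library, and 11 of 15 libraries reached 1 TPM. Gls2 was 1.57-fold higher in IM than in OM (log2 0.36, SE 0.11, limma adjusted p = 0.00778) and 1.75-fold higher in IM than in cortex (log2 0.45, SE 0.11, adjusted p = 0.00172). Both calls ended after scaling, where the differences were 0.05 (adjusted p = 0.679) and 0.06 (adjusted p = 0.658), and the IM and OM call also in voom on the recovered reads (0.45, adjusted p = 0.0625). OM and cortex did not differ detectably at this depth (log2 0.08, SE 0.11, adjusted p = 0.608, and 0.0021 with adjusted p = 0.992 after scaling). In GENCODE M21 the gene overlaps Spryd4 on the opposite strand, which averaged 16.0 TPM in IM, 19.3 TPM in OM and 18.3 TPM in cortex, so reads of the pair cannot be told apart.

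Glud1, the mitochondrial glutamate dehydrogenase, was lower in IM. It had 194, 181, 203, 180.5 and 180.5 TPM in the IM libraries, 218, 274, 246, 263 and 258 TPM in OM, and 266, 278, 255, 276 and 287 TPM in cortex. All IM libraries lay below all others, whereas OM and cortex overlapped. The level was 1.34-fold lower in IM than in OM (log2 -0.42, SE 0.06, limma adjusted p = 1.02e-05) and 1.45-fold lower in IM than in cortex (log2 -0.54, SE 0.06, adjusted p = 5.25e-07). Relative to the typical gene these falls were larger, at -0.96 and -1.24. The OM and cortex difference was -0.12 (adjusted p = 0.161) on the TPM scale and was called after scaling (-0.28, adjusted p = 0.00519).

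Glul, glutamine synthetase, had the highest mean of the 7 members in each zone, and its own mean was highest in OM. It had 300.4, 243, 251, 163 and 295 TPM in the IM libraries. It had 532, 574, 507, 549.8 and 600.4 TPM in OM, and 486, 495, 404, 444 and 429 TPM in cortex. No library of a zone overlapped with those of another zone, although the lowest OM value (507 TPM) stood just above the highest cortex value (495 TPM). Members whose libraries did not overlap numbered 3 between IM and OM, 4 between IM and cortex and 3 between OM and cortex, against 71.4%, 77.5% and 28.7% of all tested genes.

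Glul was 2.21-fold lower in IM than in OM (log2 -1.17, SE 0.13, limma adjusted p = 4.69e-07) and 1.80-fold lower in IM than in cortex (log2 -0.88, SE 0.13, adjusted p = 1.01e-05), the largest falls among the 7 members with all libraries. Without IM library 4 its IM and cortex difference was -0.73, smaller than that of Rhbg (-0.79). After scaling the falls were -1.71 and -1.58. Between OM and cortex it was 1.22-fold higher without passing (log2 0.29, SE 0.13, adjusted p = 0.0946). That difference was called without IM library 4 (adjusted p = 0.00703), which enters the shared estimate of spread, and it was 0.13 (adjusted p = 0.539) after scaling. A row for the microRNA gene Mir8114, which GENCODE M21 places inside Glul on the same strand, averaged 312 ± 70.7 TPM in IM, 692 ± 151 TPM in OM and 482 ± 26 TPM in cortex, and the reads of the pair cannot be told apart.

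Markers of the straight proximal tubule, a segment known for Glul, were likewise highest in OM. The 6 markers summed to 589 to 1973 TPM in IM, 3997 to 5004 TPM in OM and 1747 to 3033 TPM in cortex, with all 6 above 1 TPM in every zone. These sums overlapped between IM and cortex, where Glul did not, and 2 of the 6 markers had a higher mean in IM than in cortex. Cyp7b1 averaged 237 TPM in IM and 78.3 TPM in cortex, and Slc22a7 averaged 157 TPM in IM and 145 TPM in cortex. Within IM, library 4 held both the lowest Glul (163 TPM) and the lowest marker sum (589 TPM), and within OM library 5 held the highest of both (600.4 and 5004 TPM). The lowest values of OM lay in different libraries, with Glul lowest in library 3 (507 TPM) and the marker sum lowest in library 2 (3997 TPM). Within cortex the order differed too, since library 2 held the highest Glul (495 TPM) and the lowest marker sum (1747 TPM). The part of these cells in the Glul differences was not tested.

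**Figure D3:**
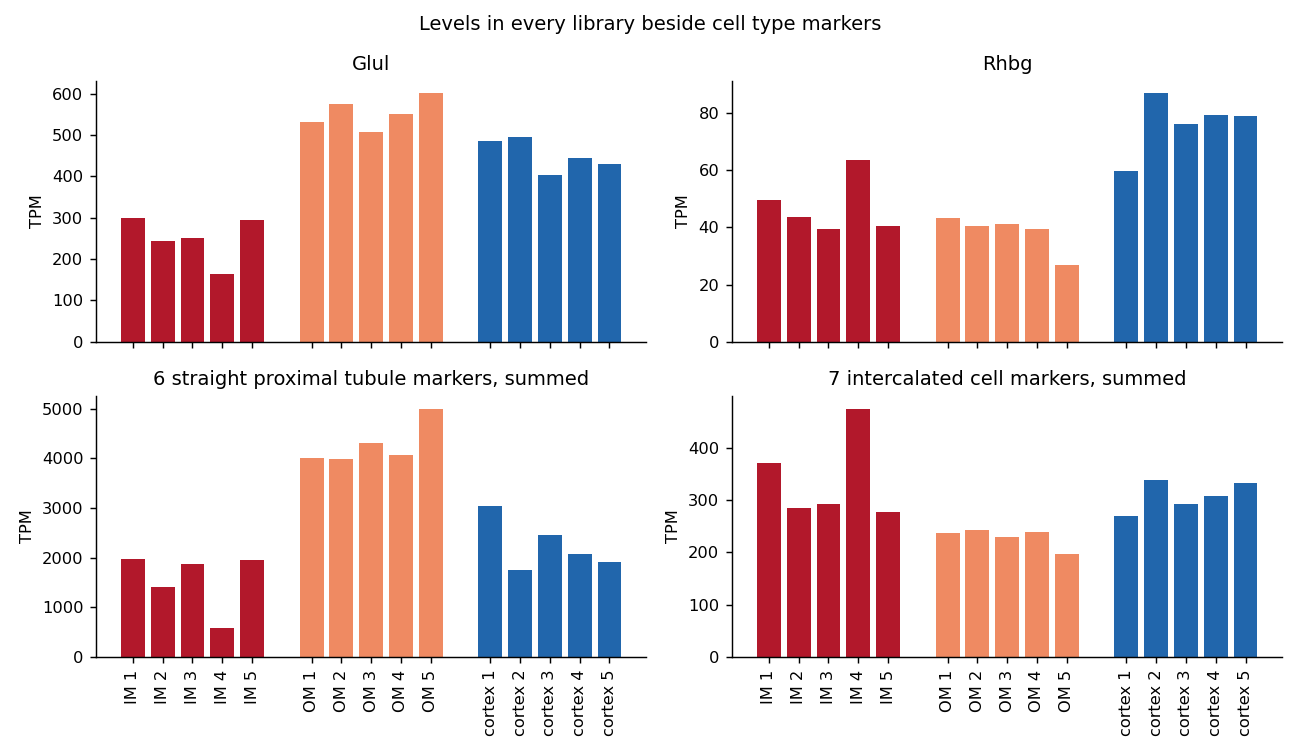
TPM of Glul and Rhbg in every library (upper bars) above the summed TPM of 6 straight proximal tubule markers and 7 intercalated cell markers (lower bars). IM library 4 was lowest for Glul (163 TPM) and for the straight tubule markers, and highest of its zone for Rhbg (63.5 TPM) and for the intercalated markers (475 TPM).

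Got1 and Got2, the cytosolic and mitochondrial aspartate aminotransferases, work together in the malate-aspartate shuttle, which carries reducing equivalents into mitochondria. Got1 was the flattest member. It had 133, 96.3, 121, 122 and 100.4 TPM in the IM libraries, 106, 119, 129.9, 121 and 114 TPM in OM, and 113, 123, 122, 122 and 125 TPM in cortex. The zones overlapped in every comparison, and the differences were -0.05 between IM and OM (SE 0.08, limma adjusted p = 0.571), -0.09 between IM and cortex (SE 0.08, adjusted p = 0.313) and -0.04 between OM and cortex (SE 0.08, adjusted p = 0.748). Relative to the typical gene, Got1 was lower in IM, at -0.59 against OM (adjusted p = 9.41e-06) and -0.79 against cortex (adjusted p = 2.77e-07), while OM and cortex then differed by -0.20 (adjusted p = 0.0740). In voom on the recovered reads the difference was -0.22 between IM and OM (adjusted p = 0.0162) and -0.29 between IM and cortex (adjusted p = 0.00229).

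Got2 was lower in IM on both scales. It had 255, 199, 243, 234 and 206 TPM in the IM libraries, 253, 294, 308, 319 and 284 TPM in OM, and 295, 325, 321, 342 and 338 TPM in cortex. IM library 1 reached the lowest OM library, and all IM libraries lay below all cortex libraries. Got2 was 1.28-fold lower in IM than in OM (log2 -0.36, SE 0.08, limma adjusted p = 0.000459) and 1.43-fold lower in IM than in cortex (log2 -0.52, SE 0.08, adjusted p = 1.19e-05). Scaling gave -0.90 and -1.22. The OM and cortex difference was -0.15 (adjusted p = 0.137), and it was called after scaling (-0.32, adjusted p = 0.00666). GENCODE M21 holds a pseudogene, Got2-ps1, and Gm45760 on the opposite strand of Got2, whose reads cannot be told apart from those of Got2 without the counting rules.

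Asns, asparagine synthetase, showed the largest differences among the 7 members in IM on the TPM scale. After scaling, Glul differed more between IM and OM (-1.71). Asns was the single member called higher in all 3 comparisons on both scales. It had 15.3, 19.4, 25.1, 35.3 and 19.6 TPM in the IM libraries, 5.49, 4.08, 6.11, 6.05 and 6.46 TPM in OM, and 3.25, 3.56, 3.52, 3.27 and 2.82 TPM in cortex. No zone overlapped with another, and IM library 4 was the highest of all. Asns was 4.07-fold higher in IM than in OM (log2 1.81, SE 0.17, limma adjusted p = 5.67e-08), 6.99-fold higher in IM than in cortex (log2 2.43, SE 0.17, adjusted p = 1.12e-09) and 1.72-fold higher in OM than in cortex (log2 0.62, SE 0.17, adjusted p = 0.00945). After scaling the rises were 1.31, 1.81 and 0.50, all called. The OM and cortex call was lost under quantile normalization (0.37, adjusted p = 0.125) and in voom on the recovered reads (0.73, adjusted p = 0.0541). Asns had 55 to 657 reads per library.

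Markers of several cell types were also higher in IM, as Asns was. Thin limb markers (4 of 4 above 1 TPM in IM, 3 in OM and 2 in cortex) summed to 6319 to 12064 TPM in IM, 342 to 686 TPM in OM and 90.3 to 173 TPM in cortex. Cryab and Akr1b3 made up most of that sum in IM, at means of 5533 and 3600 TPM. Whether these transcripts came from thin limb cells was not tested. Endothelial markers (5 of 5 in every zone) summed to 1257 to 1705 TPM in IM, 289 to 356 TPM in OM and 161 to 186 TPM in cortex. Urothelial markers (5 of 5 in IM and OM, 0 of 5 in cortex) summed to 172 to 275 TPM in IM, 7.22 to 37.3 TPM in OM and 0.393 to 3.82 TPM in cortex. IM library 4, the highest for Asns, was also the highest for the urothelial, principal cell, intercalated cell and adipocyte markers. It was not the highest for the thin limb markers (8772 TPM, against 12064 TPM in IM library 2). Nor was it for the endothelial markers (1677 TPM, against 1705 TPM in IM library 2). Its 4 adipocyte markers summed to 743 TPM, against 358 to 455 TPM in the other IM libraries. Fabp4 made up most of these sums, at 353 to 698 TPM in IM, where Adipoq lay at 1.19 to 26.9 TPM. The part of these cells in the differences of Asns, and in those of the ATF4 response genes, was not tested.

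Rhbg, the basolateral ammonia transporter of the connecting tubule and collecting duct, was highest in cortex. It had 49.7, 43.8, 39.5, 63.5 and 40.6 TPM in the IM libraries, 43.2, 40.5, 41.0, 39.4 and 26.7 TPM in OM, and 59.8, 86.8, 76.2, 79.2 and 78.8 TPM in cortex. OM lay below cortex in every library, IM overlapped with OM, and IM library 4 exceeded cortex library 1. Rhbg was 2.00-fold lower in OM than in cortex (log2 -0.99, SE 0.15, limma adjusted p = 0.000114) and 1.61-fold lower in IM than in cortex (log2 -0.68, SE 0.15, adjusted p = 0.000409). After scaling these falls were -1.15 and -1.37. The IM and OM difference was 0.30 (SE 0.15, adjusted p = 0.0648) on the TPM scale and -0.22 (adjusted p = 0.157) after scaling, so that its sign depended on the scale. On the TPM scale it passed without OM library 1 (0.35, adjusted p = 0.0494), IM library 3 (0.36, adjusted p = 0.0403) or IM library 5 (0.35, adjusted p = 0.0476). GENCODE M21 places Gm38392 over Rhbg on the same strand, so their reads cannot be told apart.

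The 7 intercalated cell markers, from the cells that handle acid and base in the collecting duct, summed to 277 to 475 TPM in IM, 197 to 242 TPM in OM and 269.8 to 339 TPM in cortex, with 7 of 7 above 1 TPM in every zone. Aqp6 made up the largest part of this sum in IM, at a mean of 190 TPM, against 72.7 TPM in OM and 29.3 TPM in cortex. The genes of the list other than Aqp6 and Slc4a1 had their highest mean in cortex. IM library 4 was the highest of its zone for Rhbg and for this sum. OM library 5 was the lowest of its zone for both (26.7 and 197 TPM), as was cortex library 1 (59.8 and 269.8 TPM). Members of the list went different ways: Slc26a4, pendrin of type B cells, averaged 3.01 TPM in IM, 35.5 TPM in OM and 85.8 TPM in cortex, and Slc4a1, the anion exchanger of type A cells, averaged 61.3 TPM in IM, 27.6 TPM in OM and 15.8 TPM in cortex. Markers of the distal convoluted and connecting tubule (6 genes) summed to 105 to 174 TPM in IM, 912 to 2002 TPM in OM and 3371 to 4382 TPM in cortex, with 5 of 6 above 1 TPM in IM and 6 of 6 in the other zones. The part of these cells in the Rhbg differences was not tested.

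Ratios of 2 genes within a library do not move with the scaling of that library, and 2 of them were compared between zones (6 tests, exact permutation test, two-sided, adjusted over the 6). The smallest p that 5 libraries against 5 allow is 0.00794. The ratio of Glul to Glud1 was highest in OM, at 1.33 ± 0.289 in IM, 2.20 ± 0.171 in OM and 1.66 ± 0.139 in cortex. The log2 ratio differed by -0.75 between IM and OM and by 0.41 between OM and cortex, both without overlap (adjusted p = 0.0119, exact permutation test). IM and cortex differed by -0.34 without passing (adjusted p = 0.0556, exact permutation test), and the difference was called without IM library 5 (-0.42, adjusted p = 0.0317) or cortex library 5 (-0.38, adjusted p = 0.0476). It was -0.21 (adjusted p = 0.111) without IM library 4, and -0.17 (adjusted p = 0.20) without cortex 1, OM 1 and IM 4 together, by the same exact permutation test.

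The share of the cytosolic aminotransferase rose inward. Got1 stood at 0.502 ± 0.0181 of the TPM of Got2 in IM, 0.405 ± 0.0167 in OM and 0.374 ± 0.0112 in cortex. The log2 ratio was 0.31 higher in IM than in OM and 0.43 higher in IM than in cortex, both without overlap (adjusted p = 0.0119, exact permutation test), and 0.12 higher in OM than in cortex with overlap (adjusted p = 0.0190, exact permutation test).

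**Figure D4:**
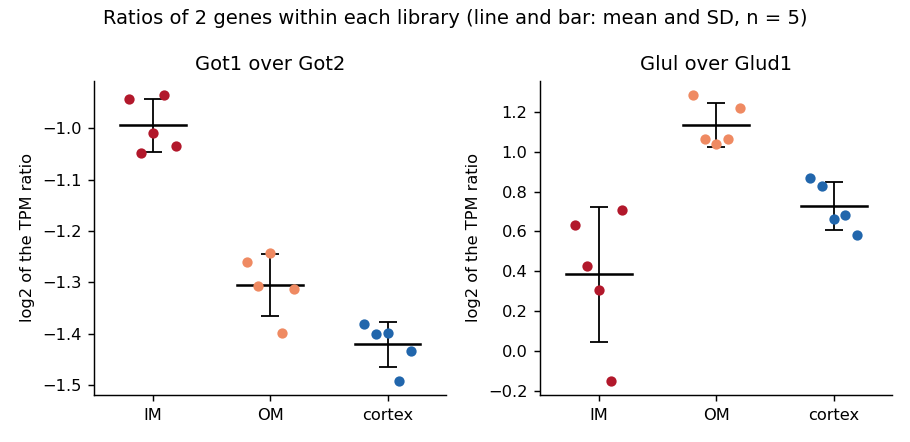
log2 of the ratio of TPM values of 2 genes in the same library, by zone, with points for libraries and a line and bar for the mean and SD (n = 5 per zone). Got1 over Got2 placed the IM libraries apart from those of both other zones, and Glul over Glud1 was highest in OM.

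Other genes of the pathway numbered 88 in 11 lists, of which 78 passed the filter on low values. The 5 libraries of 1 zone were enough to pass it, so a low gene could enter through the zone where it was high. Gfpt2, Sds and Pycr1 averaged 8.42, 1.70 and 1.59 TPM in IM and under 1 TPM in OM and cortex. Their rises in IM, counted below, are not independent of the filter. Between IM and OM 29 rose and 34 fell, with a median of -0.10 (log2) against 0.514 for all genes, and after scaling 24 rose and 47 fell. Of all tested genes, 66.4% were called higher and 17.2% lower there, and 38.1% and 36.3% after scaling. These shares are also the background for the counts of each list below in IM against OM. Between IM and cortex 36 rose and 33 fell (25 and 43 after scaling), with a median of 0.21 against 0.652. Among all genes 70.2% were higher and 16% lower (40% and 38.6% after scaling). Between OM and cortex 20 rose and 16 fell (12 and 20 after scaling), with a median of 0.12 against 0.114. Here 28.3% of all genes were higher and 6.3% lower (16.2% and 17.8% after scaling). Genes under the filter included Cps1 and Otc of the urea cycle, which makes urea from ammonia in the liver, with Otc at 0 in all libraries.

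Of the 10 tested carriers of glutamine and glutamate, 2 rose and 5 fell in IM against OM (2 and 7 after scaling). Slc38a3, which brings glutamine into the proximal tubule cell across its basolateral side, averaged 23.7 ± 9.55 TPM in IM, 54.8 ± 6.07 TPM in OM and 15.7 ± 10.2 TPM in cortex (SD, n = 5 each). It fell in IM against OM (log2 -1.30, limma adjusted p = 0.00417) and rose in OM against cortex (1.90, adjusted p = 0.00107). Slc6a19, a neutral amino acid transporter of the proximal brush border, averaged 23.4 TPM in IM, 116 TPM in OM and 269 TPM in cortex, and Slc1a1, a glutamate transporter, averaged 68.4 TPM in IM, 199 TPM in OM and 166 TPM in cortex. The glutamine carriers Slc38a1 and Slc38a2 went the other way, with Slc38a2 at 90.8 TPM in IM, 27.1 TPM in OM and 17.6 TPM in cortex (IM against OM 1.64, adjusted p = 2.83e-06). Slc25a13, an aspartate-glutamate carrier of mitochondria, averaged 44.7 TPM in IM, 91.8 TPM in OM and 82.6 TPM in cortex.

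All 4 tested genes of glutamate formation and breakdown fell in IM against OM, on both scales. They were Ggt1, which splits glutathione, Aldh4a1 and Prodh of proline breakdown, and Ogdh of the citric acid cycle. Aldh4a1 averaged 188 TPM in IM, 405 TPM in OM and 448 TPM in cortex. Of 10 aminotransferases, 2 rose and 6 fell in IM against OM (2 and 7 after scaling). Psat1 of serine synthesis was 135 TPM in IM, 12.8 TPM in OM and 22.3 TPM in cortex (IM against OM log2 3.29, limma adjusted p = 2.18e-12), and Oat, ornithine aminotransferase, averaged 221 TPM in IM, 122 TPM in OM and 117 TPM in cortex. Aadat fell, at 232 TPM in IM against 597 TPM in OM.

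Of 7 genes of the malate-aspartate shuttle and gluconeogenesis, 6 fell and 1 rose in IM against OM, on both scales. Mdh1, cytosolic malate dehydrogenase, averaged 770.3 TPM in IM, 1369.8 TPM in OM and 1429 TPM in cortex. Pck1, which turns oxaloacetate into phosphoenolpyruvate, averaged 293 TPM in IM, 1019 TPM in OM and 1223 TPM in cortex, and its mitochondrial counterpart Pck2 rose, at 22.6 TPM in IM against 10.7 TPM in OM (log2 1.01, limma adjusted p = 1.89e-09). Of 8 tested enzymes that release ammonia from other sources, 3 rose and 4 fell in IM against OM. Dao, D-amino acid oxidase, averaged 108 TPM in IM, 386 TPM in OM and 470 TPM in cortex, while Ampd3, an AMP deaminase, averaged 112 TPM in IM, 11.2 TPM in OM and 7.60 TPM in cortex (IM against OM 3.20, adjusted p = 8.34e-13).

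Of 9 glutamine-using synthases, 5 rose and 1 fell in IM against OM, and 3 rose and 5 fell after scaling. Cad, which starts pyrimidine synthesis, averaged 20.7 TPM in IM, 4.83 TPM in OM and 3.97 TPM in cortex. Among 5 tested glutamate-using synthases 3 fell in IM against OM, namely Gss, Gclm and Gclc of glutathione synthesis. Another 2 rose, Aldh18a1 and Pycr1 of proline synthesis, with Pycr1 near the filter at 1.59 TPM in IM and 0.624 TPM in OM. Of 3 tested urea cycle and arginine genes, Ass1 and Asl, which make arginine in the proximal tubule, fell, with Ass1 at 536 TPM in IM, 2529 TPM in OM and 4512 TPM in cortex. Arg2, mitochondrial arginase, averaged 15.03 TPM in IM, 11.8 TPM in OM and 3.69 TPM in cortex and rose in IM and in OM against cortex (log2 1.78 and 1.44). Of 2 asparagine-breaking enzymes, Asrgl1 rose and Aspg fell in IM against OM, with Aspg at 30.1 TPM in IM and 79.9 TPM in OM.

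Of 5 tested genes of ammonium transport, 1 fell and 0 rose between IM and OM (5 fell after scaling). Rhcg, the second Rh glycoprotein of the collecting duct, averaged 91.2 ± 24.8 TPM in IM, 99.5 ± 10.7 TPM in OM and 138 ± 10.5 TPM in cortex (SD, n = 5 each). Like Rhbg it fell in OM against cortex (log2 -0.47, limma adjusted p = 0.0188) and in IM against cortex (-0.63, adjusted p = 0.000719). Slc12a1, the cotransporter that also carries ammonium in the thick ascending limb, averaged 958 TPM in IM, 906 TPM in OM and 157 TPM in cortex. It rose in OM against cortex (2.51, adjusted p = 2.03e-06). The 5 markers of that limb, Slc12a1 among them, summed to 2189 to 4790 TPM in IM, 2562 to 5354 TPM in OM and 1014 to 1408 TPM in cortex. The IM level of Slc12a1 is therefore not shown to come from inner medullary cells, and whether OM tissue lay in the IM libraries was not tested.

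Genes of the ATF4 amino acid response, the program through which cells short of amino acids induce Asns, were mostly higher in IM. Of 15 tested genes, 13 rose and 1 fell in IM against OM, where 66.4% and 17.2% of all genes did, with a median of 1.37 against 0.514. After scaling 10 rose and 2 fell, with 38.1% and 36.3% of all genes as background and a median of 0.84 against 0.0259. Atf4 itself averaged 194 TPM in IM, 93.2 TPM in OM and 86.0 TPM in cortex (IM against OM log2 1.03, limma adjusted p = 9.97e-08). Phgdh, the entry enzyme of serine synthesis, averaged 139.6 TPM in IM, 12.7 TPM in OM and 7.71 TPM in cortex. Ddit3, a stress-induced transcription factor, averaged 190.5 TPM in IM, 36.7 TPM in OM and 32.3 TPM in cortex. Shmt2, a mitochondrial enzyme of serine and folate metabolism, went against the list, at 94.2 TPM in IM, 235 TPM in OM and 294 TPM in cortex (IM against OM -1.32, adjusted p = 1.54e-08).

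Between OM and cortex 4 of the 15 rose and 2 fell (3 and 2 after scaling), where 28.3% and 6.3% of all genes did on the TPM scale, so that the share that rose was near the background. Slc3a2, a subunit of amino acid exchangers, fell (log2 -0.61, limma adjusted p = 0.000122), with 73.8 TPM in OM and 114 TPM in cortex. Of the 13 listed genes with a promoter window, 5 held the looser letters TGATGNAAN (38.5%), searched on both strands, against 4.50% of all genes with a window (1215 of 27025). This motif includes TGATGAAAC, and Got1, the flattest member, held it as well, on the opposite strand 103 bases before its start. The list was drawn up from genes known to answer to ATF4, so this share describes the list.

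**Figure D5:**
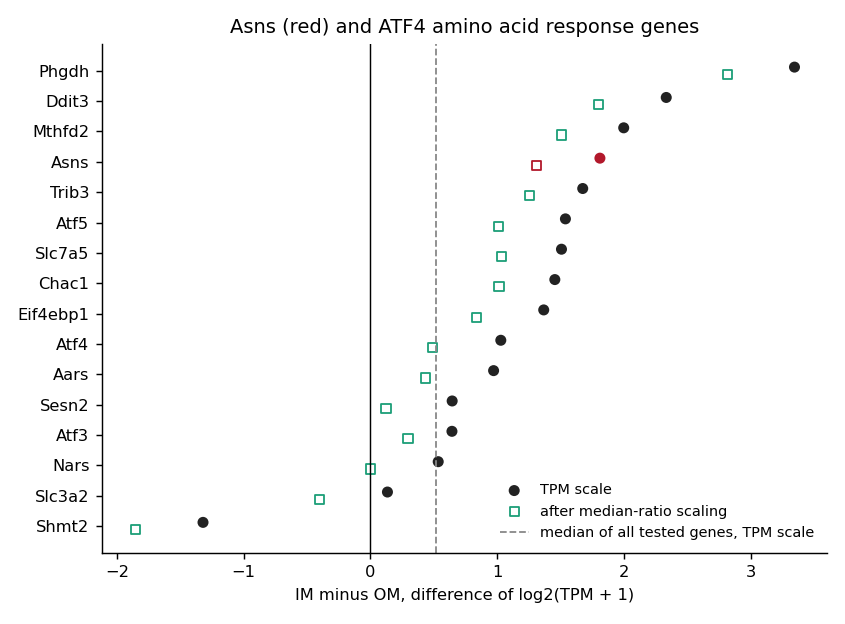
Difference of log2(TPM + 1) between IM and OM for Asns (red) and the 15 tested genes of the ATF4 amino acid response, on the TPM scale (filled circles) and after median-ratio scaling (open squares), with a dashed line at the median of all tested genes (0.514). Asns lay at 1.81 and 1.31, and Phgdh was the highest of the list.

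For each member, the genes of most similar profile were sought among 12057 genes by the root mean square difference of log2(TPM + 1) per library, after each gene was centred on its own mean over the 15 libraries. Asns lay nearest to Wscd1 (0.148), Atf5 (0.169), a factor of the same ATF4 list, and Scube1 (0.173), where its own profile spread by 1.06. Glul lay nearest to Echdc2 (0.0938), Tmem25 (0.105) and Gm2a (0.114), with a spread of 0.535. Rhbg lay nearest to Atp6v1c2 (0.154), a subunit of the proton pump, Hepacam2 (0.171) and Plekhd1 (0.181), with a spread of 0.470. The nearest genes of Got2 were BC004004 (0.0784), Oaz2 (0.0797) and its fellow member Glud1 (0.0873).

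Glud1, Got1 and Gls2 had narrower profiles than Asns, Glul and Rhbg. Glud1 lay nearest to Nxt2 (0.0701), Lrrc58 (0.0715) and Tmem126a (0.0717), with a spread of 0.245. Got1, whose profile spread by 0.125, lay nearest to the ATP synthase gene Atp5g2 (0.0714), Mapre2 (0.0779) and the citrate synthase gene Cs (0.0809). Gls2 lay nearest to Smcr8 (0.102), Trmt61b (0.120) and Traf3ip1 (0.122), with a spread of 0.248.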

How the data were processed

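Total RNA of 15 samples was sequenced in paired-end mode, as the protocols in the labels state. 1 table of TPM, deposited by the authors, holds each gene in each library. STAR and mm9 are named in the submitters' processing notes. How reads were counted, with which annotation and strand rule, is not given in the sources used here, so overlapping genes cannot be told apart. No column belonged to another sample (0 columns), and 92 ERCC rows were all at 0.

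TPM columns sum to 1000000 and state no depth. Whole reads were recovered from the steps between values (19997 genes, 100% within 0.001 of a whole number), leaving out 762 genes above 0 in 1 library. The fit used log2(TPM + 1) in limma 3.58.1 (R 4.3.3, statmod 1.5.0), with zone as the only factor, trend and robust settings. It was also run on simulated reads in which a small set of genes changed, with equal numbers up and down. The typical gene did not shift there, so that run does not bear on the scaling. Exact permutation tests used scipy 1.17.1. Alternatives were median-ratio scaling, quantile normalization, a pseudocount of 0.1, no filter, the replicate block, voom on recovered reads and leaving out libraries.

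The members and gene lists were chosen with earlier results of these data known. Genes were named by a rule: all members, the up to 3 most abundant genes of each pathway list, genes against the majority of their list, and the 3 nearest profiles per member. Some genes of the pathway lists that the rule gives are left to the counts. A gene of the pathway and the ratios to it are not reported here, and ratio p-values are adjusted over the 6 tests that are. Slc38a3, Rhcg, Phgdh, Ddit3, Cad, Gfpt2, Ogdh, Cps1, Otc, Mir8114 and Spryd4 were picked outside this rule, after their values were seen. So were the marker genes Slc26a4, Slc4a1, Aqp6, Cyp7b1, Slc22a7, Aqp2, Scnn1g, Hsd11b2, Cryab, Akr1b3, Fabp4, Adipoq and Kap.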

Additional observations from a re-analysis of the deposited data

Results flagged for a closer look

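Rhbg in OM library 5 was 26.7 TPM, far from the other OM libraries at 39.4 to 43.2 TPM. Of 27 groups of 5 libraries checked, chance alone would set about 1 in 20 apart in this way.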

How the results depend on the processing

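Scaling mattered most. After median-ratio scaling 4 members were called between OM and cortex, and 1 under quantile normalization or in voom on recovered reads, against 2 as reported. All genes called higher and lower were 5740 and 5470 between IM and OM (5543 and 5391 under quantile normalization), 6015 and 5806 between IM and cortex (5640 and 5827), and 2445 and 2675 between OM and cortex (1945 and 2172). Rhbg between IM and OM turned to -0.22 after median-ratio scaling and -0.17 under quantile normalization, which also turned Gls2 to -0.081 (IM and OM), -0.24 (IM and cortex) and -0.16 (OM and cortex). A pseudocount of 0.1 or no filter changed no call of a member. Leaving out single libraries gave -0.11 to 0.0087 for Got1 between IM and OM, where the lone positive value came without IM library 2. Such fits gave -0.42 to -0.21 for the ratio of Glul to Glud1 between IM and cortex. With a pseudocount of 1 no call of a ratio changed. Without cortex 1, OM 1 and IM 4 together, Glul rose in OM against cortex (0.33, limma adjusted p = 0.00793), and no other member's call changed. The cause of these changes was not tested.

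The labels tie no number to a mouse or batch, and same-numbered libraries did not all deviate together: their correlations ran from -0.0268 to 0.262, with 8 of 15 pairs over 0.1. As a hint of pairing in the data, 9 of 15 libraries lay nearest their own number. With the replicate block, members called stayed at 5 between IM and OM, 6 between IM and cortex and 2 between OM and cortex, and all genes called were 12736, 13114 and 5524. Depth limits Gls2, at 20 to 59 reads per library.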
